A study of Homo sapiens with 16 samples.

Results

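The T cell receptor and coreceptor genes examined were Cd3d, Cd3e, Cd3g, Cd4, Cd8a, Cd8b1, Trac, Trbc1, Trbc2 and Trdc, chosen by name as 10 of the 32285 gene columns of the single-cell tables. Their UMIs (unique molecular identifiers, each standing for 1 captured RNA molecule) were summed over the cells of each deposited cluster name. The sums were divided by all UMIs of the same cells, as counts per 1000000 UMIs (CPM), to see how far the deposited T cell names match the receptor chains and coreceptors that those cells carried. Which samples went into 1 sum followed the 3 experiments, which were short-term T22, short-term T127 and long-term.

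T22 (LPA1-T22) and T127 (LPA1-T127) are mammary tumor models derived from transgenic mice that express the LPA1 lysophosphatidic acid receptor in mammary epithelium. Chunks of 25 mm3 were placed in the mammary fat pad of immunocompetent female FVB mice aged 6 weeks. The mice then received vehicle or olaparib, an inhibitor of poly(ADP-ribose) polymerase, at 50 mg/kg a day by oral gavage, for 4 or 8 days in the short-term experiments (each model alone) and for 20 days in the long-term experiment. The long-term tumors were T22 and T127 as single strain transplants or co-transplanted on opposite sides of a mouse. Cells of several tumors were tagged and pooled, in 4 pools each for short-term T22 and short-term T127 and 8 long-term pools. Each pool mixes tumors given vehicle and olaparib. Cells were not assigned to tumors in the tables analysed, so treatments were not compared and each experiment counts as 1 sample. Pools of an experiment may be technical repeats, so values by pool do not show the spread between tumors. The organism field of the sample labels names human, whereas the mouse strain, the mouse build and the mouse gene symbols all name mouse. Pools held 34755906 to 55600377 UMIs. Cell barcodes recur between the long-term pools, and 25723 of 30845 long-term cells remained when the deepest copy of each barcode was kept, beside 15094 short-term T22 and 8007 short-term T127 cells. Of the 5122 shallower copies, 31.0% carried the same cluster name as the deepest copy.

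A T cell recognises antigen through a receptor that pairs an alpha with a beta chain or a gamma with a delta chain. Neither pair signals alone, and the CD3 chains carry the signal into the cell. CD4 and CD8 are coreceptors that bind MHC class II and class I, and mature alpha beta T cells usually keep 1 of them, whereas most gamma delta T cells carry neither. Natural killer (NK) cells are close relatives of T cells that kill without an antigen receptor at their surface. Per the study's methods, clusters were named from CD3 with CD4 and a Tcf gene (CD4_Tcm-TCF7), CD4 and Foxp3 (CD4_Treg-FOXP3), CD8 and Ccr7 (CD8_Tn-CCR7) or Mki67 (Tprf-MKI67). CD3, Cd4 and Cd8 levels in these clusters were therefore partly set by the naming, and all comparisons between clusters are descriptions with no test. All intervals are exact 95% intervals (Poisson for CPM, Clopper-Pearson for shares, conditional binomial for ratios) and cover counting error only.

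Cells with a T cell name were 1558 of the long-term cells, which is 6.06% (95% interval 5.77 to 6.36, pools 3.63 to 8.66). They were 23.2% of short-term T22 cells (3505 cells, pools 23.0 to 23.6) and 4.86% of short-term T127 cells (389 cells, pools 4.20 to 5.59). CD4_Tcm-TCF7 was the most frequent T cell name in all 3 experiments, with 1136, 2438 and 204 cells for long-term, short-term T22 and short-term T127. CD4_Treg-FOXP3 held 113, 5 and 149 cells, CD8_Tn-CCR7 81, 257 and 18, Tgd 207, 387 and 17, and Tprf-MKI67 21, 418 and 1. Values resting on 5, 18, 17 or 1 cells have wide intervals and are given for completeness.

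**Figure D1:**
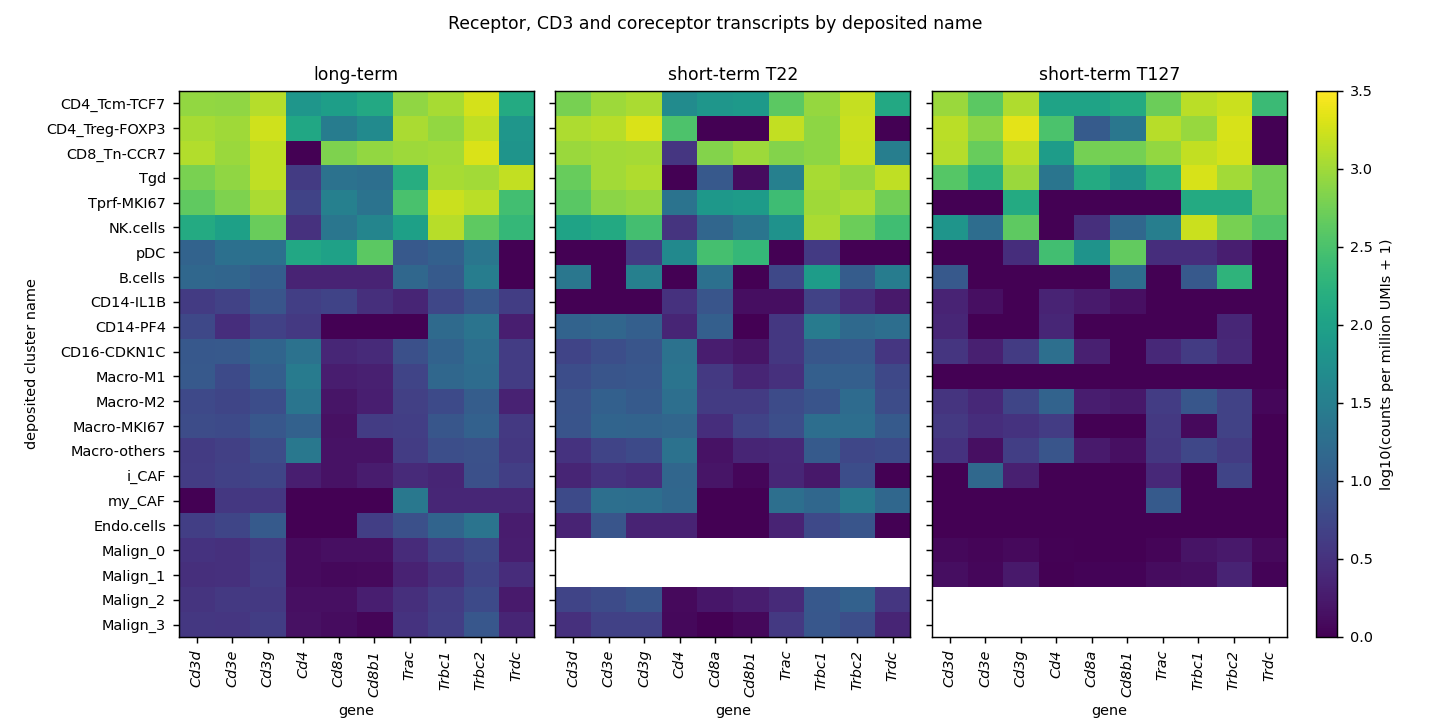
Level of each of the 10 genes in each deposited cluster of the long-term pools and of short-term T22 and T127, as log10(CPM + 1), with white for names without cells. The CD3 and beta chain genes are high in the T cell names (except in the single T127 Tprf-MKI67 cell), Cd8a and Cd8b1 peak in CD8_Tn-CCR7, Trdc peaks in Tgd, and Cd4 is also present in pDC and macrophage clusters.

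The CD3 chains were present in every T cell name and nearly absent from tumor cells. Summed over Cd3d, Cd3e and Cd3g (the delta, epsilon and gamma chains), the T cell names together held 3031 CPM (2989 to 3073) in the long-term pools, 2588 CPM (2570 to 2607) in short-term T22 and 3194 CPM (3103 to 3287) in short-term T127. Malignant clusters held 7.61, 15.9 and 0.853 CPM in the same order. Between names of the long-term pools the CD3 sum ranged less, with 2942 CPM in CD4_Tcm-TCF7, 3892 CPM in CD4_Treg-FOXP3, 3683 CPM in CD8_Tn-CCR7, 2930 CPM in Tgd and 2224 CPM in Tprf-MKI67. The lowest sums were those of the 17 short-term T127 Tgd cells, at 1497 CPM (1299 to 1717), and of the single Tprf-MKI67 cell there, at 136 CPM on 1 UMI.

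At equal depth (each cell thinned to 1000 UMIs, shallower cells left out), a CD3 UMI was found in 85.6% of long-term cells with a T cell name (83.8 to 87.4), 82.0% of short-term T22 cells (80.7 to 83.2) and 84.4% of short-term T127 cells (80.3 to 87.9). Before thinning the shares were 91.1%, 89.7% and 90.0%. In malignant clusters the thinned shares were 0.568%, 0.921% and 0.0205%, which is the background in cells that should lack the genes. The cells left out for depth, over all clusters, numbered 50, 38 and 14. Cells with a T cell name and no UMI of any CD3, alpha, beta or delta gene were rare, at 0.642% of long-term (10 cells), 0.399% of short-term T22 (14 cells) and 1.29% of short-term T127 cells (5 cells).

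Genes of the alpha beta receptor and of the delta chain were both found in the named T cells. Trac encodes the constant part of the alpha chain, and Trbc1 and Trbc2 encode alternative constant parts of the beta chain that are nearly identical in coding sequence, so the split of reads between them is uncertain. Trac stood at 706 CPM (686 to 727) over the long-term T cell names, 365 CPM (358 to 372) in short-term T22 and 813 CPM (767 to 861) in short-term T127. Trdc, the delta chain gene, gave 2656, 10311 and 239 UMIs there, beside 4638, 10259 and 1185 UMIs of Trac. The thinned share of cells with Trac was 47.7% (45.2 to 50.2), 28.8% (27.3 to 30.4) and 48.0% (42.9 to 53.2), against 0.146%, 0.102% and 0% in malignant clusters. There, 0 of 4878 thinned short-term T127 cells allows a share with a Trac UMI at 1000 UMIs of up to 0.0615%, taking 3 cells as the limit. Unthinned, Trac was found in 103 of 6862, 27 of 1954 and 20 of 4878 malignant cells. Of all Trac UMIs, 81.7%, 92.1% and 89.4% lay in cells with a T cell name. Such cells made up 2.16%, 16.9% and 0.697% of all UMIs.

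Among T cell names, Trac was highest in CD4_Treg-FOXP3, at 1119 CPM (1024 to 1220) in the long-term pools and 1326 CPM (1232 to 1425) in short-term T127. CD8_Tn-CCR7 followed with 985 CPM (896 to 1080) long-term, and its interval overlaps that of CD4_Treg-FOXP3. CD4_Tcm-TCF7 stood below both at 833 CPM (805 to 861). In short-term T22, CD8_Tn-CCR7 reached 714 CPM (680 to 749) and CD4_Tcm-TCF7 418 CPM (408 to 428), so the same order held there without overlap. Tprf-MKI67, the proliferating T cells, held 258 CPM of Trac in short-term T22 and 309 CPM long-term. These were 0.709 and 0.438 times the level over all T cell names. That level includes the Tprf-MKI67 cells, so both ratios understate the difference from the other names.

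Trbc2 was the more frequent beta constant UMI in named alpha beta clusters. Trbc1 made up 36.3% of Trbc1 and Trbc2 UMIs in long-term CD4_Tcm-TCF7 (35.5 to 37.2), 36.2% in short-term T22 (35.7 to 36.7) and 45.5% in short-term T127 (43.3 to 47.8). In Tgd the Trbc1 share was higher, at 51.3% (49.5 to 53.2), 55.9% (54.7 to 57.1) and 65.4% (60.5 to 70.0). Among cells of T cell names with at least 2 beta UMIs, 55.0%, 63.3% and 55.0% carried both genes. Whether these cells express both genes, or reads or droplets were mixed, was not tested.

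The delta chain gene separated Tgd from CD4_Tcm-TCF7 and CD8_Tn-CCR7 in the long-term and short-term T22 pools. Trdc, which encodes the constant part of the delta chain and lies inside the alpha chain locus, stood at 1486 CPM (1421 to 1553) in long-term Tgd and 1476 CPM (1434 to 1518) in short-term T22 Tgd. This was 11.4 times (10.4 to 12.5) and 12.6 times (12.0 to 13.3) the level in CD4_Tcm-TCF7 and CD8_Tn-CCR7 together. By pool, short-term T22 Tgd held 1546, 1554, 1414 and 1392 CPM of Trdc, and the 8 long-term pools ranged from 883 to 2831 with a median of 1349. Every pool value lay above all pool values of CD4_Tcm-TCF7, which reached at most 440 CPM long-term and 152 CPM in short-term T22. Long-term Tprf-MKI67 overlapped with Tgd, at 1434 CPM of Trdc in pool 1, on 2 cells. Trac ran the other way, with 150 CPM (130 to 173) in long-term Tgd and 32.0 CPM (26.1 to 38.9) in short-term T22 Tgd. This was 0.177 times (0.153 to 0.205) and 0.0705 times (0.0574 to 0.0857) the level of CD4_Tcm-TCF7 and CD8_Tn-CCR7 together.

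All 387 short-term T22 Tgd cells carried at least 1 Trdc UMI, and 341 of them carried Trdc without Trac. In the long-term pools 139 of 207 Tgd cells carried Trdc without Trac, 33 carried Trac without Trdc and 23 carried both. At equal depth the share of Tgd cells with Trdc was 64.7% (57.8 to 71.2) and 69.3% (64.4 to 73.8), against 5.16% and 5.90% in CD4_Tcm-TCF7. Unthinned, the shares were 78.3% and 100% against 10.6% and 9.84%, at median UMIs of 5643 and 7872 against 2758 and 6403. Gamma and delta chain genes were high in the same cells. Tcrg-C1, a gamma constant gene, stood at 757 and 695 CPM in Tgd against 124 and 222 CPM in CD4_Tcm-TCF7, and Trdv4, a delta variable gene, at 323 and 451 CPM against 32.1 and 35.9 CPM. Il17a, the cytokine of interleukin-17-producing gamma delta T cells, stood at 468 and 541 CPM in Tgd, and Cd163l1, a scavenger receptor known from the same cells, at 285 and 599 CPM.

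The Tgd cells of short-term T127 held less Trdc, and most of the other genes were low or at 0. Trdc was 570 CPM (450 to 711) in its 17 cells, 2.75 times (2.07 to 3.63) the level of CD4_Tcm-TCF7 and CD8_Tn-CCR7. This rested on T127 pool 2, which held 55 of the 78 Trdc UMIs, and without it Trdc was 292 CPM and the ratio 1.19 (0.733 to 1.87). Of the 17 cells, 8 carried Trdc without Trac, 4 carried Trac without Trdc and 5 carried neither. Tcrg-C1 stood at 21.9 CPM, Trdv4 at 43.8 CPM (9.22 CPM in CD4_Tcm-TCF7) and Il17a and Cd163l1 at 0, while Ncr1, a receptor of NK cells, stood at 635 CPM. The 5 NK markers (Ncr1, Klrb1c, Klre1, Klrd1 and Eomes) were all detected there and summed to 1490 CPM, against 574 CPM in long-term Tgd, 369 CPM in short-term T22 Tgd and 2667 CPM in short-term T127 NK cells. The low Tcrg-C1 and the NK markers go against the name Tgd in T127, while Trdv4 lay above its level in CD4_Tcm-TCF7. Other gamma constant genes are not given for these cells. High NK markers were not particular to this cluster. They summed to 1798 CPM in short-term T127 CD4_Tcm-TCF7 cells with Trdc and no coreceptor. Il17a and Cd163l1 speak only to interleukin-17-producing gamma delta T cells. The CD3 sum given above for these cells lay above the 505 CPM of short-term T127 NK cells. Whether they are gamma delta T cells was not tested, and the cluster is called by its deposited name below for want of another.

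Tprf-MKI67 cells of short-term T22 mixed both receptors. Of 418 cells, 185 carried Trac only, 145 Trdc only and 31 both. Trdc stood at 555 CPM, 1.51 times the level over all T cell names, these cells included. Trdv4 was 182 CPM and Cd163l1 264 CPM in these cells, between the levels of CD4_Tcm-TCF7 and Tgd.

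**Figure D2:**
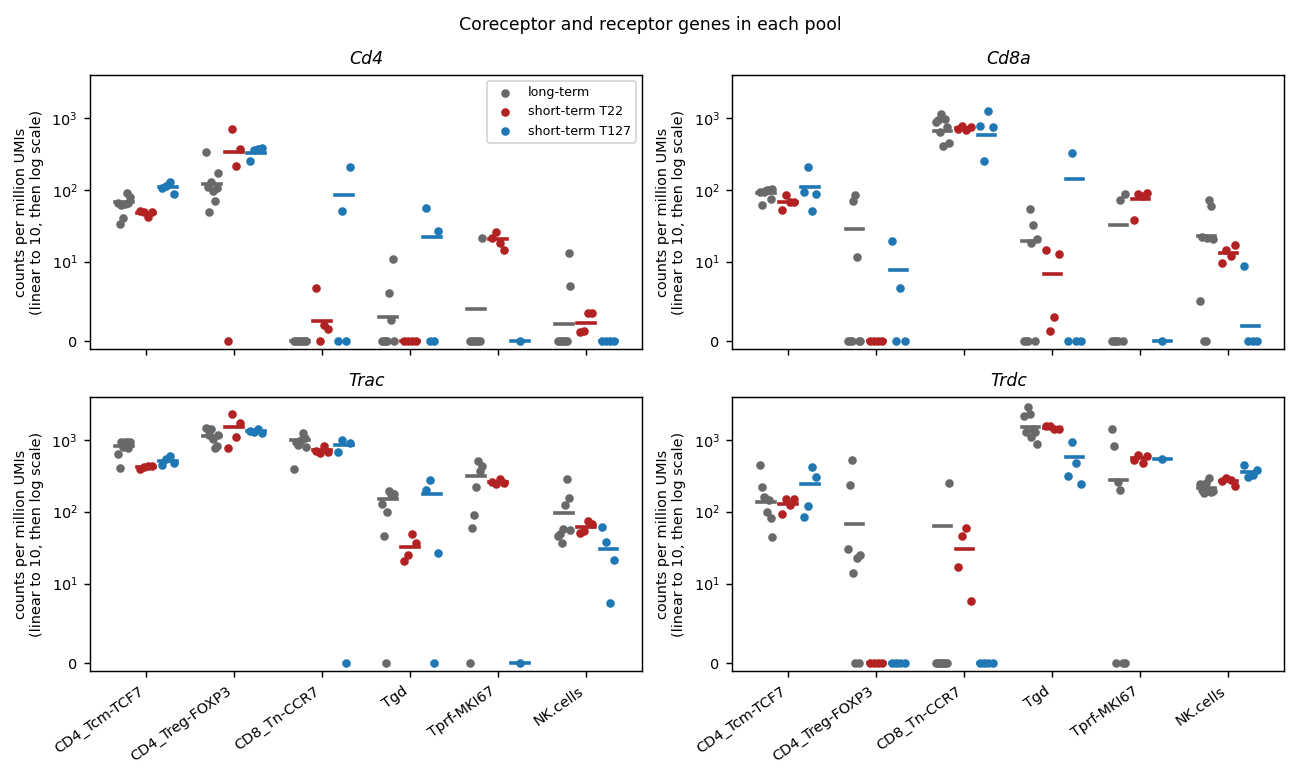
Level of Cd4, Cd8a, Trac and Trdc in each pool, in CPM (linear to 10, then a log scale), for the T cell names and NK cells of the 3 experiments, with 1 point a pool and a bar at the level over all pools. Trac in CD4_Tcm-TCF7 lies between 394 and 434 CPM in the 4 short-term T22 pools, whereas values on few cells or few UMIs, such as those of short-term T127 Tgd and CD8_Tn-CCR7 or Trdc in short-term T22 CD8_Tn-CCR7 (7.77 to 58.6 CPM), scatter widely.

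The Cd8 genes were high in CD8_Tn-CCR7, whereas Cd4 was found in CD4_Tcm-TCF7 at a low level. Cd8a and Cd8b1 encode the alpha and beta chains of the CD8 dimer. Cd8a stood at 662 CPM (589 to 740) in long-term CD8_Tn-CCR7, 719 CPM (685 to 754) in short-term T22 and 581 CPM (445 to 744) in short-term T127. These were 7.28 times (6.23 to 8.49), 10.7 times (9.88 to 11.5) and 5.40 times (3.77 to 7.71) the level in CD4_Tcm-TCF7. Without T127 pool 2 the last became 10.0 times (6.47 to 15.6). Cd8b1 ran in parallel, with ratios of 6.55 (5.73 to 7.47), 13.0 (12.1 to 14.0) and 4.29 (3.05 to 6.01), the last at 6.53 without T127 pool 2 and 2.64 without T127 pool 4. Of CD8_Tn-CCR7 cells, 93.8% (86.2 to 98.0), 98.4% (96.1 to 99.6) and 66.7% (41.0 to 86.7) carried a Cd8 gene without Cd4.

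Cd4 was 67.6 CPM (59.9 to 76.1) in long-term CD4_Tcm-TCF7, with pools from 33.6 to 90.7 and a median of 63.9. In short-term T22 it was 47.8 CPM (44.5 to 51.3), with pools at 51.3, 49.4, 42.2 and 48.7, and in short-term T127 it was 108 CPM (83.9 to 136), with pools 1, 2 and 4 at 107, 114 and 88.3 and pool 3 the highest. CD8_Tn-CCR7 held no Cd4 UMI in any of the 8 long-term pools, so Cd4 was at least 10.4-fold higher in CD4_Tcm-TCF7 there, taking 3 UMIs over the cluster as the floor (the conditional binomial lower limit was 8.40). In short-term T22 the ratio was 18.6 (8.51 to 50.9), on 6 UMIs in CD8_Tn-CCR7, of which pool 1 held 4. Without that pool it was 40.6 (11.2 to 336). Cd4 in CD4_Tcm-TCF7 was 0.562 times (0.419 to 0.765) the level of CD4_Treg-FOXP3 in the long-term pools and 0.330 times (0.247 to 0.438) in short-term T127. CD4_Treg-FOXP3 was the T cell name with the most Cd4, at 120 CPM (90.7 to 157) and 326 CPM (280 to 377). Foxp3, the transcription factor of regulatory T cells, stood at 131 and 614 CPM in that cluster and at most at 24.6 CPM in CD4_Tcm-TCF7.

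In short-term T127 the Cd4 ratio of CD4_Tcm-TCF7 to CD8_Tn-CCR7 was 1.28, with an interval of 0.635 to 2.91 that includes no difference. Without T127 pool 4 it was 4.24 (1.12 to 36.0), on 2 UMIs in CD8_Tn-CCR7. With every pool, CD8_Tn-CCR7 held 9 Cd4 UMIs there, which gave 84.3 CPM (38.6 to 160) over 18 cells. All 9 lay among the 3 of 18 cells that carried Siglech or Ccr9 UMIs, which are listed markers of plasmacytoid dendritic cells (pDC). Those 3 cells also held T cell receptor UMIs, with 409 CPM of Trac, 25 Trbc2 UMIs and 572 CPM of Cd8a. The other 15 cells held 0 Cd4 UMIs, 583 CPM of Cd8a and 984 CPM of Trac. Ccr9 was also found without Siglech in long-term CD4_Tcm-TCF7 cells with a Cd8 gene only, on 16 UMIs. In long-term and short-term T22 CD8_Tn-CCR7, the 2 cells and 1 cell with Siglech or Ccr9 held 0 Cd4 UMIs. What the 3 cells are was not tested. The 4 pDC markers (Siglech, Bst2, Ccr9 and Tcf4) were all detected in this cluster and summed to 1902 CPM, against 488 CPM in long-term and 247 CPM in short-term T22 CD8_Tn-CCR7. Splitting by Siglech and Ccr9 was chosen after the values were seen.

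CD4_Tcm-TCF7 held cells with Cd4 and cells with a Cd8 gene, and in the long-term and short-term T22 pools which were more frequent changed with depth. In the long-term pools 201 of 1136 cells carried Cd4 without a Cd8 gene, which is 17.7% (15.5 to 20.0), and 196 carried Cd8a or Cd8b1 without Cd4, which is 17.3% (15.1 to 19.6). Both kinds were carried by 9 cells, and 730, or 64.3% (61.4 to 67.1), carried neither. Short-term T22 gave 16.7% Cd4 only (15.3 to 18.3), 14.5% Cd8 only (13.1 to 15.9) and 0.492% both. Short-term T127 gave 22.1% (16.6 to 28.4), 18.1% (13.1 to 24.1) and 0.490%. At equal depth the long-term shares were 8.27% Cd4 only and 13.1% Cd8 only, those of short-term T22 5.03% and 8.03% and those of short-term T127 12.5% and 11.5%. The Cd8 share counts either of 2 genes and the Cd4 share 1. In malignant clusters, which should lack both, unthinned shares were 0.525%, 0.358% and 0.123% for Cd4 and 0.874%, 0.921% and 0.164% for the Cd8 genes.

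**Figure D3:**
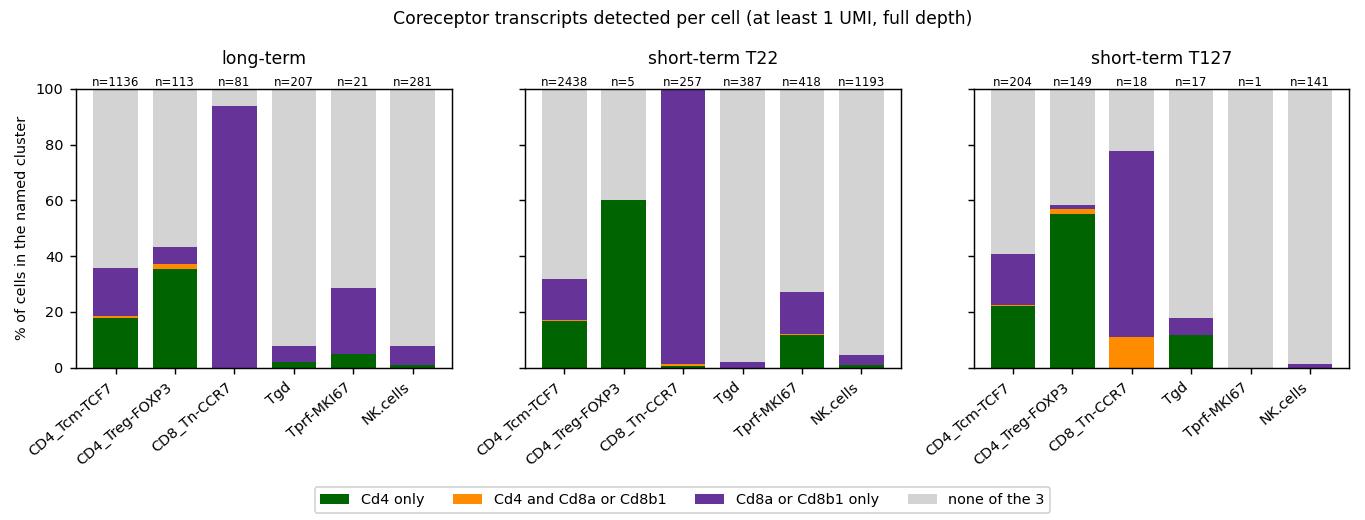
Share of cells of each T cell name and of NK cells that carried Cd4 only, Cd8a or Cd8b1 only, both or neither, in percent of cells of the cluster, for the 3 experiments. Before thinning, CD4_Tcm-TCF7 is 17.7% Cd4-only and 17.3% Cd8-only in the long-term pools, while CD8_Tn-CCR7 is 93.8% and 98.4% Cd8-only in the long-term and T22 pools and 66.7% in T127.

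Other genes split the same way between these cells of CD4_Tcm-TCF7. Cd40lg, a helper ligand mainly of CD4 T cells, stood at 319 CPM (278 to 365) in the long-term Cd4-only cells and 102 CPM (79.7 to 128) in the Cd8-only cells. Ccl5 and Nkg7, a chemokine and a granule protein of cytotoxic cells, stood at 142 and 111 CPM in the Cd4-only cells and at 1292 and 817 CPM in the Cd8-only cells. Runx3, a transcription factor of the CD8 lineage, stood at 88.4 CPM (67.3 to 114) and 266 CPM (230 to 306). The Trac intervals overlapped, at 1188 CPM (1107 to 1274) and 1148 CPM (1070 to 1229).

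The split was smaller in short-term T22, where Cd40lg stood at 346 and 124 CPM, Ccl5 at 771 and 1616 CPM and Runx3 at 277 and 337 CPM. In short-term T127 it rested on 45 and 37 cells, with Cd40lg at 79.5 CPM (34.3 to 157) and 0 CPM (0 to 30.6) and Ccl5 at 89.4 and 1046 CPM. Tcf7, the gene in the cluster's name, stood at 343 CPM (300 to 391) and 284 CPM (246 to 326) in the long-term Cd4-only and Cd8-only cells and at 248 CPM (229 to 268) and 207 CPM (190 to 225) in short-term T22, where the intervals do not overlap.

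Markers of other cells also differed between the Cd4-only and Cd8-only cells. The 8 myeloid markers summed to 301 CPM (280 to 322) and 202 CPM (186 to 220) in short-term T22, all 8 detected in both, with Lyz2 at 92.5 and 43.6 CPM. Their intervals overlapped in the long-term pools, at 607 and 565 CPM, and in short-term T127, at 169 and 99.7 CPM. The 5 NK markers summed to 27.0 and 199 CPM in the long-term pools, 126 and 230 CPM in short-term T22 and 139 and 639 CPM in short-term T127. The 4 pDC markers summed to 250 CPM (231 to 270) and 149 CPM (134 to 164) in short-term T22. Bst2 made up 236 and 142 CPM of this, and Siglech gave 0 and 1 UMI. The pDC intervals overlapped in the long-term pools, at 193 and 246 CPM, and in short-term T127, at 109 and 166 CPM. The part of such cells in the split was not tested.

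CD4_Tcm-TCF7 also held cells with Trdc and no coreceptor, 107 in the long-term pools, 223 in short-term T22 and 34 in short-term T127. Their Trac was low, at 55.1, 32.8 and 86.5 CPM. In short-term T22 they carried gamma delta genes, with Tcrg-C1 at 448 CPM and Cd163l1 at 370 CPM, against 76.5 and 0.381 CPM in the Cd4-only cells of the cluster, and also Ncr1, at 208 CPM (187 to 232). In short-term T127 they carried Ncr1 at 544 CPM (436 to 670) and Tcrg-C1 at 49.4 CPM, and in the long-term pools both Ncr1, at 704 CPM, and Tcrg-C1, at 267 CPM. Ncr1 in Cd4-only cells was 3.00 CPM long-term, 16.4 CPM in short-term T22 and 0 CPM in short-term T127. Neither gene was particular to the Trdc cells. The cells with no coreceptor and no Trdc, which numbered 623, 1442 and 87, held Ncr1 at 164, 94.4 and 350 CPM and Tcrg-C1 at 133, 247 and 18.8 CPM. Cd163l1 was 3.35, 3.47 and 3.76 CPM in them, against 129, 370 and 0 CPM in the Trdc cells. The 5 NK markers, all detected, summed to 1637, 672 and 1798 CPM in the Trdc cells, against 470, 320 and 1008 CPM over all of CD4_Tcm-TCF7. The 8 myeloid markers summed to 2863, 476 and 2193 CPM in the Trdc cells, with 8, 8 and 5 of them detected. Of this sum 2468, 383 and 2144 CPM was Tyrobp, a signalling adaptor of both NK and myeloid cells, while Lyz2 was 99.8, 32.8 and 18.5 CPM. The part of such cells in the Trdc level of the cluster was not tested.

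NK cells, named without the receptor genes, carried some of them at T cell levels. Trbc1 was 1311 CPM in long-term NK cells, 1126 CPM in short-term T22 and 1632 CPM in short-term T127, which were 1.20 times (1.15 to 1.26), 1.21 times (1.19 to 1.24) and 1.30 times (1.21 to 1.39) the level over the T cell names. Trbc2 was 0.253, 0.364 and 0.348 times the T cell level. Trbc1 therefore made up 75.4% (73.9 to 76.9), 68.9% (68.1 to 69.6) and 73.2% (71.3 to 75.1) of beta constant UMIs in NK cells, with 58.1% in the lowest of the 16 pools. Among NK cells with at least 2 beta UMIs, 36.5%, 22.3% and 11.6% carried Trbc1 alone, against 7.86%, 3.50% and 6.27% of cells with a T cell name.

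Trdc was also common in NK cells, at 215 CPM (195 to 237), 266 CPM (256 to 277) and 358 CPM (322 to 397). This was 0.532 and 0.727 times the T cell level in the long-term and short-term T22 pools and 2.18 times (1.85 to 2.58) in short-term T127. It became 0.494 times without long-term pool 8 and 1.62 times (1.35 to 1.95) without T127 pool 1. In short-term T127, NK cells held 56.9% of all Trdc UMIs. Trdc without Trac was found in 53.4%, 53.7% and 56.7% of NK cells, while Tcrg-C1 stood at 19.7, 47.6 and 4.00 CPM. Median UMIs of NK cells were 5248, 6543 and 6064.

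The CD3 genes were lower in NK cells and not evenly so. Their sum was 730, 525 and 505 CPM, or 0.241 times (0.228 to 0.255), 0.203 times (0.197 to 0.209) and 0.158 times (0.144 to 0.173) the T cell level. Cd3g was retained most, at 0.366, 0.268 and 0.265 times, while Cd3e was 0.116, 0.140 and 0.0318 times and Cd3d 0.163, 0.185 and 0.0610 times. Without T127 pool 1 the T127 value of Cd3e was 0.00779 times (0.00160 to 0.0229), on 3 in place of 17 UMIs. Cd4 was 2.13, 2.37 and 0 CPM, on 4, 22 and 0 UMIs. Its long-term level was 1.16 CPM without pool 7 and 1.26 CPM without pool 8. Trac was 96.0, 60.8 and 30.0 CPM. Among the 51 long-term NK cells with Trac, 40 also carried a CD3 and a beta UMI. Whether mixed droplets carry part of the Trac signal in NK cells was not tested.

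Of the 10 genes, none was at least 2-fold higher and 8 at least 2-fold lower in long-term NK cells than in the T cell names. Of all 6781 genes compared (mean of at least 10 CPM over both), 3.58% were 2-fold higher and 5.07% 2-fold lower. In short-term T22 the counts were also 0 and 8 (3.49% and 3.39% of all genes), and in short-term T127 1, Trdc, and 8 (4.20% and 8.15%). The 23 genes of T cell receptor signalling gave 21 past the same filter. Of these, 7, 6 and 10 were 2-fold lower in NK cells in the 3 experiments and 0, 1 and 1 higher. Lat, the membrane adaptor that links the receptor to its downstream enzymes, was 88.0, 80.3 and 40.0 CPM in NK cells against 403, 319 and 200 CPM in the T cell names. Cd5 and Themis were also lower in all 3, and Txk, a Tec family kinase, was the gene that was higher in short-term T22 and T127, at 262 and 333 CPM against 120 and 162 CPM.

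The same counts for T cell clusters followed the coreceptor and chain genes. CD8_Tn-CCR7 against CD4_Tcm-TCF7 gave 2 of 10 higher (Cd8a and Cd8b1) and 2 lower (Cd4 and Trdc) in both the long-term and the short-term T22 pools, where all genes gave 2.48% and 7.88%, and 1.81% and 4.22%. Tgd against CD4_Tcm-TCF7 gave 1 higher (Trdc) and 4 lower (Cd4, Cd8a, Cd8b1 and Trac) in both, where all genes gave 2.48% and 3.02%, and 1.41% and 1.33%. The naming used Cd4 and Cd8, and for Tgd the study's text names no gene but refers to a figure of markers. These counts therefore describe the names. Of the 21 signalling genes, 8 were 2-fold lower in Tgd in both experiments and none higher, and they were Lck, Cd2, Cd5, Cd6, Cd28, Themis, Trat1 and Ubash3a. Cd28, the main costimulatory receptor, was 33.3 and 23.2 CPM in Tgd against 178 and 153 CPM in CD4_Tcm-TCF7, while Lat was 373 and 346 CPM against 419 and 312 CPM.

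Outside lymphoid cells, many Cd4 UMIs lay in macrophages, at a lower level than in the T cell names. Macrophage clusters (CD16-CDKN1C and the 4 Macro names) held 84.8% of all Cd4 UMIs in the long-term pools, 52.3% in short-term T22 and 29.6% in short-term T127, against 9.58%, 40.1% and 32.9% in T cell names. In short-term T127, pDC held the largest share, at 36.25%. CD16-CDKN1C, whose name does not call it a macrophage, gave 5979 of the 14907, 4205 of the 7652 and 402 of the 1990 cells of the macrophage clusters. The level over the T cell names was 51.2 CPM (45.8 to 56.9), 32.9 CPM (30.8 to 35.1) and 180 CPM (159 to 204). In macrophages it had a 95% interval of 21.2 to 22.8 CPM long-term, 18.3 to 20.5 CPM in short-term T22 and 8.94 to 11.6 CPM in short-term T127, and a Cd4 UMI was found in 12.3%, 9.29% and 6.68% of macrophages against 0.525%, 0.358% and 0.123% of malignant cells. At equal depth the macrophage shares were 1.94%, 1.48% and 0.854%. Macrophages held 73.1 times (53.9 to 102), 85.7 times (48.9 to 166) and 299 times (135 to 823) the Cd4 level of malignant clusters, while Trac was 2.51, 1.70 and 13.7 times. In short-term T22, 681 of 711 macrophages with Cd4 carried neither a CD3 UMI nor Trac.

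The CD14-IL1B cluster held 3.52, 2.14 and 1.21 CPM of Cd4. In short-term T22, i_CAF also carried Cd4, in 35 of 291 cells, of which 34 carried neither CD3 nor Trac. Among the macrophage names of the long-term pools Cd4 ranged from 11.1 CPM in Macro-MKI67 to 27.5 CPM in Macro-M1.

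**Figure D4:**
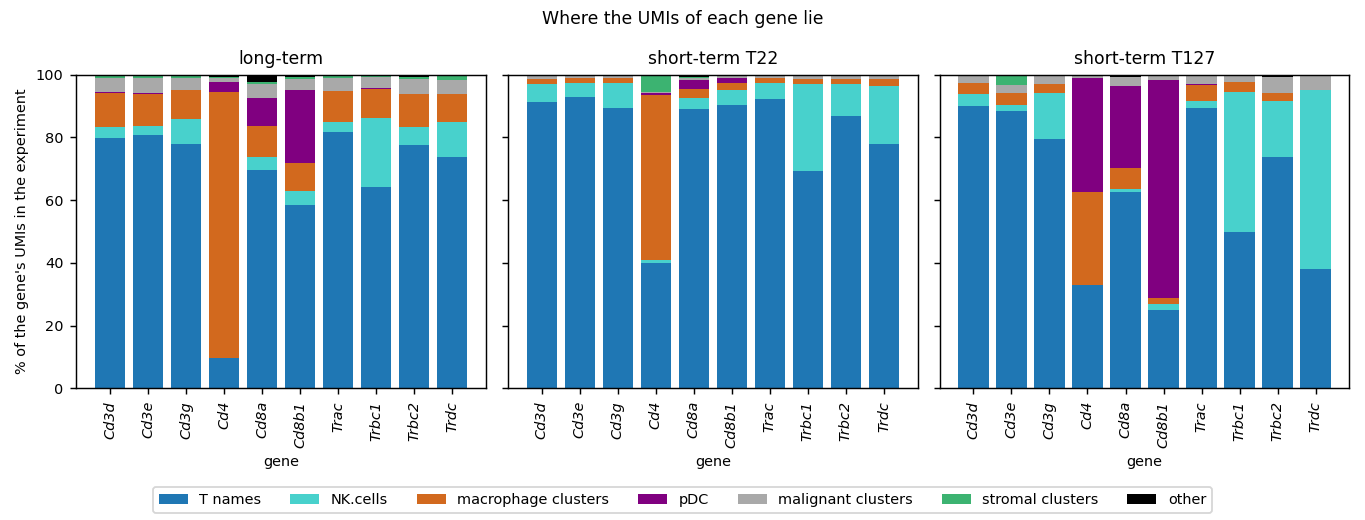
Share of each gene's UMIs that lay in T cell names, NK cells, macrophage clusters, pDC, malignant, stromal and other clusters, in percent, for the 3 experiments. Most Trac and CD3 UMIs lie in T cell names, whereas Cd4 lies largely in macrophages in the long-term (84.8%) and short-term T22 (52.3%) pools. In short-term T127, pDC hold 36.25% of Cd4, the largest share, and 69.8% of Cd8b1.

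Plasmacytoid dendritic cells, which make type I interferon and in mice can carry CD4 and CD8, held both coreceptors with little of the receptor genes. Cd4 was 125 CPM (103 to 150) in 170 long-term pDC, 44.7 CPM (25.0 to 73.7) in 35 short-term T22 pDC and 276 CPM (245 to 309) in 136 short-term T127 pDC. The T127 level was 0.847 times that of CD4_Treg-FOXP3 (0.701 to 1.03). Cd8b1 was 416, 211 and 456 CPM, and the 136 short-term T127 pDC held 69.8% of all Cd8b1 UMIs. Without T22 pool 3, which held 42 of the 71 T22 UMIs, the T22 level of Cd8b1 was 124 CPM (83.2 to 178). In long-term, short-term T22 and short-term T127 pDC, Trac was 8.61, 0 and 1.90 CPM and Trbc1 10.8, 2.98 and 1.90 CPM. Trbc2 was 22.6, 0 and 0.951 CPM. Trdc was at 0 in all 3, and the CD3 sum was 48.4, 2.98 and 1.90 CPM, on 45, 1 and 2 UMIs. Without long-term pool 4 the first was 30.4 CPM. In short-term T127, 82 of 84 pDC with Cd4 carried neither CD3 nor Trac.

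Cd4 and Cd8a levels of pDC separated the pools of the models. The short-term T22 pools held 76.5, 23.7, 48.9 and 17.4 CPM of Cd4 and 372, 189, 352 and 208 CPM of Cd8a. The T127 pools held 269, 264, 301 and 271 CPM of Cd4 and 51.7, 92.4, 93.2 and 25.2 CPM of Cd8a. The pools of the models overlap in neither gene. They do overlap in Cd8b1, at 241, 71.0, 410 and 17.4 CPM in T22 and 369, 519, 453 and 488 CPM in T127. T22 pDC had more Cd8a than Cd4 UMIs in every pool and T127 pDC more Cd4 than Cd8a. Cd8b1 made up 42.0% of Cd8a and Cd8b1 UMIs in T22 pDC (34.5 to 49.8) and 88.1% in T127 pDC (85.1 to 90.7). It was 57.2% and 50.0% in CD8_Tn-CCR7. T22 pDC rest on 6 to 12 cells a pool. Whether the name pDC covers the same kind of cells in both models was not tested.

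Trac was found in my_CAF, the myofibroblast-like fibroblasts, at 24.2 CPM (14.4 to 38.3) long-term and 18.1 CPM (12.3 to 25.5) in short-term T22. This was 15.1 times (7.35 to 31.2) and 12.8 times (6.14 to 29.2) the level of i_CAF, the inflammatory fibroblasts. Without T22 pool 2 the T22 ratio was 23.6 (8.94 to 78.3). Of 117 long-term my_CAF 15 carried Trac, and 14 of these carried no CD3 and no beta UMI. In short-term T22 the count was 20 of 129, 16 of them without. This was not particular to my_CAF. Of i_CAF with Trac, 14 of 16 long-term and 8 of 9 short-term T22 cells carried no CD3 and no beta UMI. In malignant clusters it was 34 of 103 long-term, 3 of 27 short-term T22 and 14 of 20 short-term T127 cells with Trac. Of the cells with a T cell name and Trac, 0 of 1066 long-term, 3 of 2183 short-term T22 and 3 of 284 short-term T127 cells lacked both. The short-term T127 my_CAF cluster had 8 cells and 1 Trac UMI. UMIs per cell were few, so at equal depth 5.41% (2.01 to 11.4) and 1.55% (0.188 to 5.49) of long-term and short-term T22 my_CAF carried Trac.

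Short-term T22 and T127 differed in the coreceptor and CD3 make-up of their named T cells. Over all T cell names, T22 had 0.182 times the Cd4 of T127 (0.159 to 0.210), 0.448 times the Trac (0.422 to 0.477) and 2.23 times the Trdc (1.97 to 2.55). These were the 3 of 10 genes past 2-fold, 1 higher and 2 lower, where 5.09% and 7.66% of 7659 genes were higher and lower and the median of all genes lay at −0.12 on the log2 scale. Cd4 in the pools was 34.8, 34.6, 30.4 and 31.5 CPM in T22 and 167, 144, 240 and 179 CPM in T127, without overlap. Trac was 346, 353, 393 and 369 CPM against 886, 720, 964 and 692 CPM, also without overlap. Trdc was 354, 405, 315 and 390 CPM against 55.5, 230, 214 and 181 CPM, again without overlap. Since the pools may be technical repeats, lack of overlap between them does not speak to the spread between tumors. The Trdc ratio fell under 2 without T127 pool 1, at 1.77 times (1.55 to 2.03), without Tprf-MKI67, at 1.94 times (1.70 to 2.21), or without Tgd, at 1.85 times (1.58 to 2.17), and rose to 6.88 times without CD4_Tcm-TCF7.

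The mix of names differed between the models, with 149 of 389 T127 cells but 5 of 3505 T22 cells named CD4_Treg-FOXP3, and values over all T cell names move with that mix. Without CD4_Treg-FOXP3, Cd4 was 0.359 times (0.286 to 0.456), Trac 0.732 times (0.666 to 0.807), Trdc 1.38 times (1.22 to 1.58) and Cd3e 2.44 times (2.19 to 2.72). Within CD4_Tcm-TCF7 alone, Cd4 was 0.445 times (0.348 to 0.576), Trac 0.816 times (0.731 to 0.914) and Trdc 0.536 times (0.456 to 0.635). Trac and Trdc thus did not pass 2-fold there, and Trdc lay on the other side of 1. In that cluster 1 gene was 2-fold higher, Cd3e, and 1 lower, Cd4 (5.43% and 5.71% of 7476 genes). Trdc was past that limit without T127 pool 1, at 0.455 times (0.384 to 0.542), or without T127 pool 2, at 0.467 times (0.393 to 0.559). The gamma and delta variable and constant genes did not all move with Trdc. Tcrg-C1 stood at 222 CPM in T22 and 20.0 CPM in T127 within the cluster, 11.1 times (6.48 to 20.9), whereas Trdv2-2, a delta variable gene, stood at 1.89 and 15.4 CPM. Of the 17 such genes, 6 passed the filter on mean level, which favours genes high in either model, so no count of them is read.

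Among the 21 signalling genes that passed, over all T cell names 6 were 2-fold lower in T22 (Cd2, Cd5, Cd6, Cd28, Trat1 and Ubash3a) and 1 higher (Thy1), where 7.66% of all genes were lower and 5.09% higher. Their median log2 difference was −0.39, beside −0.12 over all genes. Within CD4_Tcm-TCF7 alone 1 was lower and 1 higher, which is near the 5.71% and 5.43% of all genes and is no result about the list. They were Trat1, at 23.4 against 58.4 CPM, and Thy1, a surface glycoprotein of mouse T cells, at 276 against 92.2 CPM.

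The CD3 chains themselves were unevenly split between the models. Cd3e was higher in T22, at 939 CPM over all T cell names against 534 CPM in T127 (1.76 times, 1.64 to 1.89), while Cd3d was lower, at 573 against 1066 CPM (0.537 times, 0.510 to 0.567). Cd3d thus made up 37.9% of Cd3d and Cd3e UMIs in T22 (37.4 to 38.3, pools 36.4 to 38.8) and 66.6% in T127 (64.7 to 68.5, pools 63.5 to 71.2). The long-term pools, which mix the models, lay between, at 49.7% (48.8 to 50.7, pools 42.1 to 52.3).

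Clusters of lymphoid cells, macrophages and malignant cells each had a lower Cd3d share in T22. Cd3d made up 38.4% and 69.1% in CD4_Tcm-TCF7, 47.2% and 72.9% in CD8_Tn-CCR7, 32.0% and 68.4% in Tgd and 44.7% and 79.3% in NK cells. The CD3 UMIs of macrophage clusters stood at 40.0% (36.5 to 43.6) and 63.3% (52.5 to 73.2), and those of malignant clusters at 44.0% (39.5 to 48.5) and 65.7% (53.1 to 76.8). The few CD3 UMIs of i_CAF ran the other way, with Cd3d at 9 of 25 UMIs in T22, or 36% (18.0 to 57.5), and 0% of 27 in T127 (0 to 12.8). In NK cells Cd3e was 7.72 times higher in T22 (4.80 to 13.3), on 1217 and 17 UMIs, and was the only 1 of 8 genes that passed the filter to differ 2-fold (4.80% of all genes higher, 3.40% lower). Trac lay at that limit, at 60.8 and 30.0 CPM (2.03 times, 1.40 to 3.03, before the pseudocount). T127 pool 1 held 14 of the 17 UMIs, and without it Cd3e was 34.4 times higher in T22 (11.8 to 167), on 3 UMIs in T127, and Cd3d at 2.19 times, Cd8b1 at 2.47 times and Trac at 2.82 times were also past 2-fold. Cd8b1 was past it as well without T127 pool 2, at 2.39 times, and Trac without T22 pool 1 or 2 or T127 pool 2, at 2.11 to 2.20 times. The T22 and T127 pools were separate experiments, so model and experiment cannot be told apart. Their depths differed, with pool median UMIs of 7730 to 8528 and 22712 to 26017 over all cells. Cells with a T cell name ran the other way, with median UMIs of 7077 in T22 and 3145 in T127. Markers of other cells also differed over the T cell names. The 8 myeloid markers, all detected, summed to 271 CPM in T22 and 833 CPM in T127, and the 5 NK markers, all detected, to 312 and 680 CPM. Their part in these differences was not tested.

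**Figure D5:**
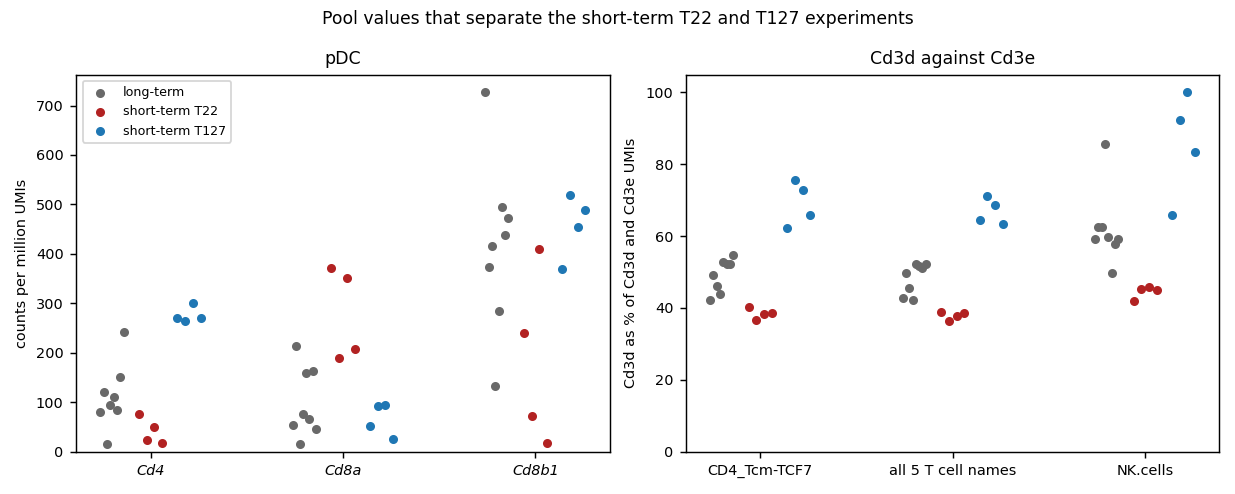
Values by pool for the 3 experiments, with 1 point a pool: on the left Cd4, Cd8a and Cd8b1 in pDC, in CPM, and on the right Cd3d as a percent of Cd3d and Cd3e UMIs in CD4_Tcm-TCF7, all 5 T cell names and NK cells. In the T cell names the Cd3d share is 36.4% to 38.8% in the 4 T22 pools and 63.5% to 71.2% in the 4 T127 pools.

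The genes whose levels over the 22 long-term clusters were most like those of the receptor genes were named by Pearson correlation of log2(CPM + 1) among 11871 genes, as a description across clusters that share pools and depth. For the CD3 sum they included Lat (r = 0.989), Trbc2 (0.988), 1700097N02Rik and Zap70 (0.977). For Cd8a they were Cd8b1 (0.968), H2-T3, Cd28, Cd7 and Sla2 (0.908). For Trdc they were the gamma chain genes Trgv2 (0.977), Tcrg-V1, Tcrg-C4 and Tcrg-C2, then Krt83 (0.962). Cd4 had no such close match. Its nearest genes were Cd200r1 (0.843), Cyp4f13, Lag3, Rilpl2 and Zc3h12d (0.811), of which the first 4 were highest in pDC.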

How the data were processed

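Per the labels, tumor cells were tagged with CellPlex oligos, pooled and sequenced as 10x 3′ v3.1 libraries, with 5000 cells targeted. The study's methods instead name hashtag antibodies and a higher number of targeted cells, and this conflict was not resolved. Per the submitters' processing notes and the study's methods, the authors used Cell Ranger 6.0.0 with introns included and the mouse build GRCm38, and named cells after clustering. The deposited tables hold raw UMI counts, 1 row a cell, with 32285 gene columns and the cluster name. The filtered companion tables were not used, and 0 columns stayed without a sample. The study's methods remove doublets (Scrublet), shallow cells and cells rich in mitochondrial UMIs, and no further doublet caller was run.

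Counts were summed per cluster name and experiment with Python 3.11.15, numpy 2.4.6, scipy 1.17.1 and pandas 2.3.3 (figures: matplotlib 3.10.9). Levels are counts per 1000000 UMIs. Log2 values add a pseudocount of 1 CPM. Comparisons over all genes kept those of at least 10 CPM on average and count a gene at a 2-fold difference. Shares of cells were taken after thinning to 1000 UMIs and also unthinned. A count of 0 allows up to 3 counts. In the long-term pools the deepest copy of a recurring barcode was kept. With 1 sample an experiment, no test was run. The pools of an experiment may be technical repeats. Scripts were tested on simulated data.

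The text names all 10 genes, genes of fixed marker lists where a result turns on them, and the 5 genes most like the CD3 sum, Cd4, Cd8a and Trdc. A gene that this rule names is not reported here. Genes, lists and the genes used to split CD4_Tcm-TCF7 were chosen with earlier results of these data known. Alternatives were every barcode copy, at least 1000 genes a cell, no top 5% of cells by UMIs, each pool left out, a pseudocount of 10 CPM, equal weight for cells, thinning to 2000 UMIs or none, at least 2 UMIs a cell, no Tprf-MKI67, and genes from 1 CPM.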

Additional observations from a re-analysis of the deposited data

Results flagged for a closer look

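In 1 of 51 sets of pool values examined, a pool stood apart by Dixon's criterion, which chance alone meets in about 1 of 20 sets. The log2 difference of Trac between Tgd and the sum of CD4_Tcm-TCF7 and CD8_Tn-CCR7 was −9.86 in long-term pool 3, where 10 Tgd cells held no Trac UMI, against a median of −2.39 and a highest value of −2.19 over the 8 pools. With no Trac UMI in those cells, the size of the pool 3 value is set by the pseudocount and is no fold.

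In 4 of 9 ratios examined, every short-term T22 pool lay on one side of equality and every T127 pool on the other; the difference was not tested. In pDC the log2 ratio of Cd8a to Cd4 UMIs had a median of 2.73 in T22 (2.20 to 3.06) and −2.005 in T127 (−3.35 to −1.49). The log2 ratio of Cd3d to Cd3e UMIs was −0.69 and 0.99 over the T cell names, −0.68 and 1.18 in CD4_Tcm-TCF7 and −0.28 and 2.56 in NK cells. In NK cells the T127 pools ranged from 0.92 to 5.04 on 17 Cd3e UMIs in all.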

How the results depend on the processing

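No paired analysis was possible because no test was run, and pool numbers of different experiments share no tumors. Cd4 in CD4_Tcm-TCF7 against CD8_Tn-CCR7 in short-term T127 was 0.35 on the log2 scale and changed sign to −0.18 with at least 1000 genes a cell. Leaving out 1 pool gave −0.12 (without pool 1) to 2.05 (without pool 4). The long-term difference of 6.10 became 5.46 with at least 1000 genes a cell, 6.598 with cells weighted equally and 2.96 with a pseudocount of 10 CPM. That pseudocount also took the short-term T22 difference from 3.77 to 2.20 and Cd4 in long-term CD4_Treg-FOXP3 against CD8_Tn-CCR7 from 6.92 to 3.70. CD8_Tn-CCR7 held 0 Cd4 UMIs in the long-term pools, so both long-term differences are set by the pseudocount and are no folds.

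The share of T cells with Trac follows depth. For long-term, short-term T22 and short-term T127 it was 47.7%, 28.8% and 48.0%, but 68.4%, 62.3% and 73.0% unthinned, 55.8%, 41.4% and 66.0% at 2000 UMIs and 24.4%, 8.18% and 23.6% when 2 UMIs were asked for. With at least 1000 genes a cell the long-term share was 37.1%. The count of receptor genes past 2-fold between T22 and T127 was 3, and 2 without Tprf-MKI67, without T127 pool 1 or in CD4_Tcm-TCF7 alone, the last being chosen after seeing the data, as were the values of single genes without 1 pool or 1 cluster name. With genes from 1 CPM on average, 2234 of 11992 genes passed 2-fold against 977 of 7659. Of the values recomputed with every pool, 85 moved by less than the spread between pools, or for the count of genes by no more than 1.5 times, 15 moved by more and 1 changed sign. With 1 pool left out 119 of 120 kept their direction. These 120 include the shares of cells with Trac and the count of genes, which cannot be negative and so could not change direction. The spread between pools is wide where cells are few, so it says little about stability there. Clusters of few cells limit short-term T127.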
